A study of Mus musculus with 20 samples.

Results

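Transcripts of 9 enzyme genes of the tricarboxylic acid cycle were followed in mouse hearts over 6 groups of genotype and diet. The members were every probe that the scanner files name as Cs, Idh2, Idh3a, Ogdh, Dlst, Sucla2, Suclg1, Fh1 or Mdh2, a choice that used no measured value. They comprised 15 of 41174 probes on the array, 3 each for Dlst and Sucla2, 2 each for Cs and Ogdh, and 1 for each of the other 5 genes. All 9 genes were among the 14567 tested genes. The probe that stood for each gene was well above background in heart RNA on 20 of 20 arrays, so the filter on dim probes removed none of them. Of the other 6 probes, 4 were above background on 20 arrays, a Dlst probe on 14 and a Sucla2 probe on 0.

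The study set mice that carry MuRF1 (MuRF1 +/+) beside mice that lack it (MuRF1 -/-), each fed chow or 0.05% (w/w) fenofibrate. MuRF1 is a ubiquitin ligase of striated muscle encoded by Trim63, and fenofibrate activates PPAR alpha, a nuclear receptor that drives genes of fatty acid use. The groups were MuRF1 +/+ on chow for 8 weeks (n = 3), on fenofibrate for 3 weeks (n = 4) and for 8 weeks (n = 3), and MuRF1 -/- on chow for 8 weeks (n = 3), on fenofibrate for 3 weeks (n = 4) and for 8 weeks (n = 3). Hearts of a group are biological replicates per the labels, which name no sex, no litter and no strain for them. Weeks are read here as the duration of feeding, as the sample labels have it, although the series text calls 3 to 8 weeks an age. No chow heart of 3 weeks was analysed, so each 3-week group was set against 8-week chow hearts, and a difference in time or age is part of that comparison. Both fenofibrate responses of a genotype share the same chow hearts. Each array held RNA of 1 heart in red (Cy5) beside a common reference in green (Cy3), RNA pooled from whole C57BL/6 mice taken on day 1 after birth. A level below is log2 of heart over that pool, with 0 for equal signal, and a difference is between 2 group means of such levels.

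The cycle oxidises acetyl units in the mitochondrial matrix and hands the electrons to the respiratory chain, which in the heart provides most of the ATP for contraction. Citrate synthase joins acetyl-CoA to oxaloacetate. Isocitrate dehydrogenase and the alpha-ketoglutarate dehydrogenase complex carry out the decarboxylations, succinyl-CoA ligase forms a nucleoside triphosphate, and fumarase and malate dehydrogenase return the carbon to oxaloacetate. Flux through the decarboxylating steps is set largely by calcium, ADP and the ratio of NADH to NAD, so transcript levels alone do not give it.

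Promoter sequence is shown for 3 members, since PPAR alpha and related nuclear receptors bind copies of the hexamer AGGTCA. RefSeq windows of build GRCm38.p6 were matched for 8 of the 9 members (13 start sites, 6 of them of Ogdh), and Idh3a was not matched. In the 270 bases from 250 before to 20 after each start, both strands were searched for AGGTCA, for the longer AAGGTCA, which contains it, and for 2 copies of AGGTCA in the same direction with any 1 base between them, the spaced repeat on which PPAR alpha binds with its partner RXR. AGGTCA lay in 3 of the 13 windows, of Ogdh, Sucla2 and Fh1, and in 15% of all 32851 windows of that length. AAGGTCA lay in 1 of the 13, that of Ogdh, and in 4.34% of all windows. The spaced repeat lay in 0 of the 13 and in 0.0335% of all windows. The 3 windows below are those of Ogdh, the member called most often, of Idh2, whose level went with that of Ogdh, and of Sucla2, which holds a match like Fh1. Capitals mark AGGTCA or AAGGTCA on either strand. The Idh2 window holds neither.
Ogdh, chr11:6291920-6292189, plus strand: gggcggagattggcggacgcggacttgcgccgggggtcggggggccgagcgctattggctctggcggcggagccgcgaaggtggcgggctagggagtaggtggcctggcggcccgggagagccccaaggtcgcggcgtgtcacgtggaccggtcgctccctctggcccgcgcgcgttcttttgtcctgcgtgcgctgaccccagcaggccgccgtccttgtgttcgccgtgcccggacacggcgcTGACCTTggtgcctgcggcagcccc
Idh2, chr7:80115331-80115600, minus strand: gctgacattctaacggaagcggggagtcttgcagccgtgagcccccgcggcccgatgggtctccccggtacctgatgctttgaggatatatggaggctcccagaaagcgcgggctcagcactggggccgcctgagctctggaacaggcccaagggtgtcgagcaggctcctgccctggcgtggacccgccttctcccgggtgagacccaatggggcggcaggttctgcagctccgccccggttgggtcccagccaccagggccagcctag
Sucla2, chr14:73552536-73552805, plus strand: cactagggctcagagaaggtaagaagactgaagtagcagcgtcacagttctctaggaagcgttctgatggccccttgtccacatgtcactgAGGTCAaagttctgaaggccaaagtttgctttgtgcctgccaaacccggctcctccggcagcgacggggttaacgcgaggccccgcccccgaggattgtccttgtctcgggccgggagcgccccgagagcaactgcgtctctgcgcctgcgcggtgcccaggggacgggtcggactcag
In the Ogdh window the match lies on the minus strand and begins at position -5 from this start site, 1 of 6 for the gene. In the Sucla2 window it lies on the plus strand and begins at position -159. A match of letters is a description and not a binding site, and no factor was measured on these promoters.

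Facts of the whole series that touch the values below were checked first. Trim63 was at 0.79 to 2.85 in the 10 MuRF1 +/+ hearts and at -1.19 to -0.49 in the 10 MuRF1 -/- hearts, so no heart went against its genotype label. All 8 cardiomyocyte markers were tested, and their mean level ran from 2.94 to 3.45 over the arrays. One array, replicate 2 of MuRF1 +/+ hearts fed fenofibrate for 8 weeks, stood apart, with 34.0% of heart probes above background and the lowest Trim63 of its genotype, 0.79. Replicate 4 of the 3-week MuRF1 -/- group had 34.3%, against 36.9% to 51.9% on the other 18 arrays. Results are therefore given with and without these 2 arrays. The 36.9% was that of replicate 3 of the 8-week MuRF1 +/+ group, which stays in both readings. In that group the shares of replicates 1 to 3 (43.0%, 34.0% and 36.9%) had the same order as the Ogdh levels (1.95, 0.66 and 1.12). The part of array quality in these levels was not tested. The Y-linked gene Ddx3y was at 1.29 to 1.74 in the 6 chow hearts, at -1.22 to -0.17 in the 8 hearts of 3 weeks and at -0.76 to -0.41 in the 8-week MuRF1 +/+ hearts. In 8-week MuRF1 -/- hearts it was at 1.47, -0.68 and 1.30. Ddx3y and the Y-linked Eif2s3y were each above background on 3 of 3 chow arrays of either genotype. At 3 weeks they were so on 0 of 4 MuRF1 +/+ and 1 of 4 MuRF1 -/- arrays. At 8 weeks the counts were 0 of 3 and 2 of 3. The sex-linked Xist was at -4.24 to -3.49 in chow and at -0.50 to 0.20 in 3-week hearts. These are patterns of male chow and mostly female 3-week hearts, although the labels name no sex. Diet and sex, as read from these transcripts, thus cannot be told apart in the comparisons with chow, except for 8 weeks in MuRF1 -/- hearts. Ddx3y also rose from 3 to 8 weeks in MuRF1 -/- hearts (1.51 ± 0.35 SE, limma adjusted p = 0.00304). Between genotypes at 8 weeks its difference was 1.30 ± 0.37 SE (limma adjusted p = 0.0964). The Y-linked level thus goes with both of these comparisons too, and its part in them was not tested. Pdk4, a PPAR alpha target that encodes a kinase inhibiting pyruvate dehydrogenase, passed the test at 8 weeks in both genotypes (2.83 ± 0.36 SE and 2.40 ± 0.36 SE) and differed from chow by 0.48 ± 0.33 SE and 0.06 ± 0.33 SE at 3 weeks (limma adjusted p = 0.319 and 0.918).

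All members were well measured in heart, and 8 of the 9 had a mean level above 0 over the 20 arrays. The mean was 2.23 ± 0.16 (SD over arrays) for Mdh2, 2.09 ± 0.53 for Idh2, 1.53 ± 0.55 for Ogdh and 1.48 ± 0.22 for Fh1. Dlst stood at 0.89 ± 0.26, Cs at 0.75 ± 0.16, Sucla2 at 0.70 ± 0.29, Suclg1 at 0.41 ± 0.31 and Idh3a at -0.06 ± 0.43. Idh3a was thus about equal in heart and newborn pool, whereas the heart signal of Mdh2 was 4.69-fold and that of Idh2 4.25-fold the signal of the pool. Ogdh, Idh2 and Idh3a had the widest spread over arrays, while Cs and Mdh2 had the narrowest. The Cs and Mdh2 probes were marked as outlier spots on replicate 3 of the 8-week MuRF1 -/- group, so that group has n = 2 for these genes. The array reference is 1 pool without a dye swap, so a level can hold a dye effect of its probe, which cancels in a difference between groups.

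**Figure D1:**
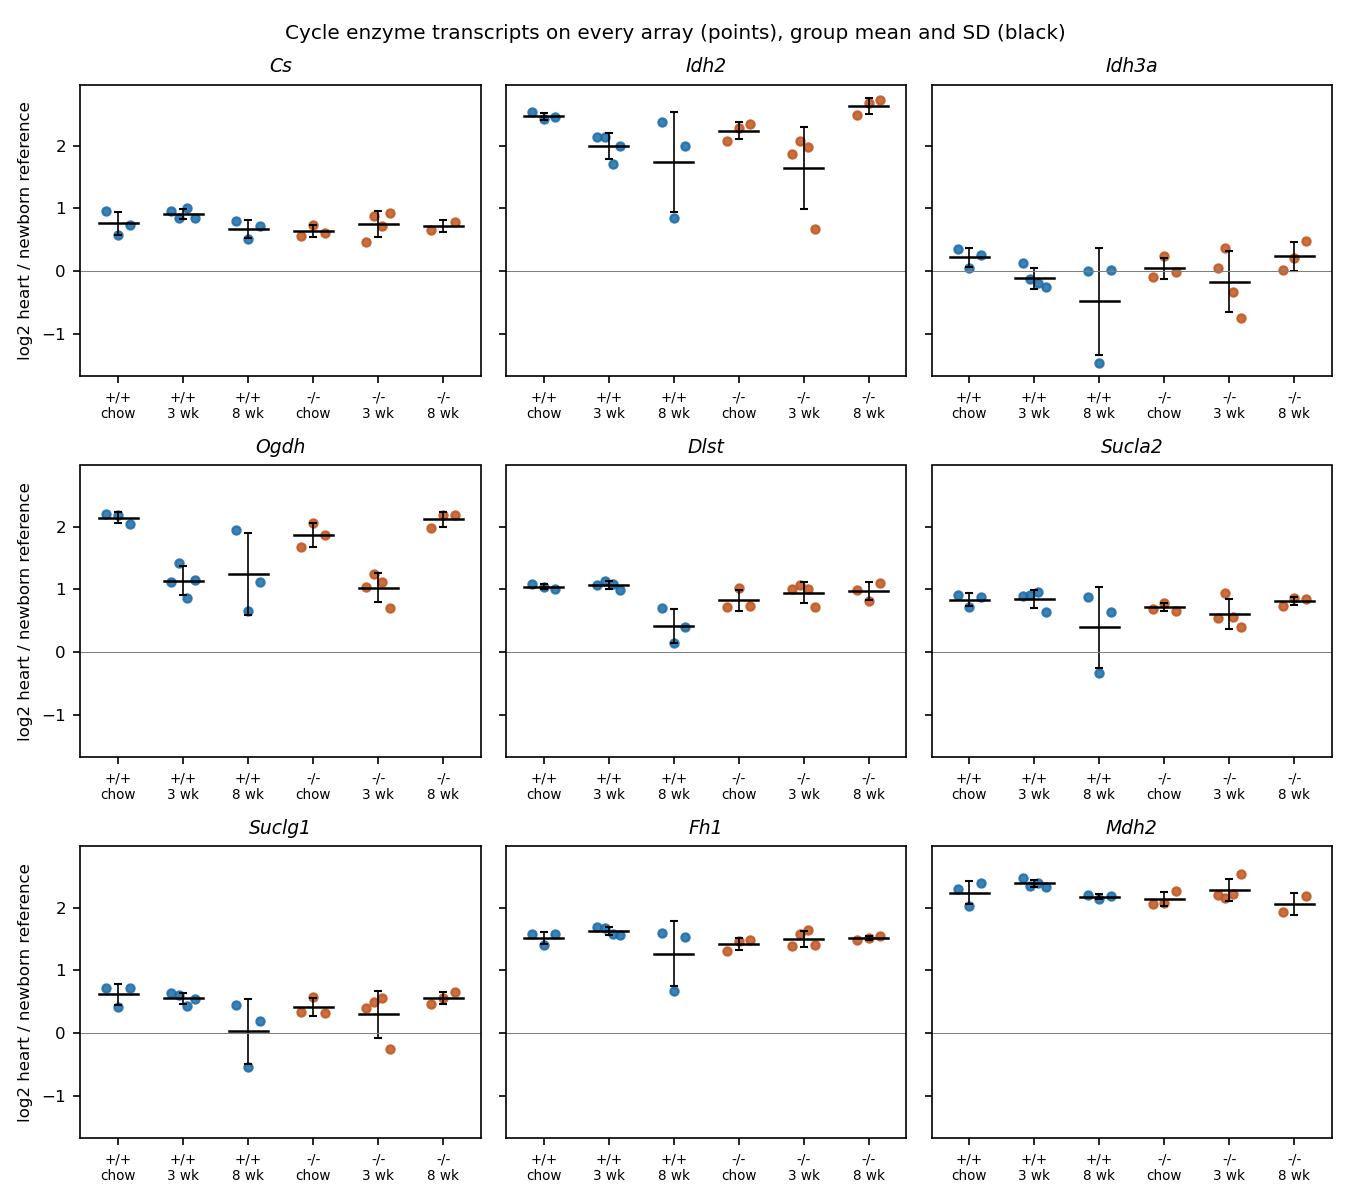
Level of each of the 9 enzyme transcripts (log2 heart over newborn reference, vertical axis) on every array, in 6 groups of genotype and diet (blue MuRF1 +/+, orange MuRF1 -/-). Points are arrays, black lines the group mean and bars the SD. Ogdh at 3 weeks lies at 0.70 to 1.42, below the chow hearts at 1.67 to 2.20, and in the 8-week MuRF1 +/+ group replicate 2 is the lowest point for all 9 members.

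Few of the 9 transcripts differed past the threshold between the diet groups, and Ogdh was the one called most often. At 3 weeks against chow, 1 of 9 members passed the test in MuRF1 +/+ hearts and 1 of 9 in MuRF1 -/- hearts, Ogdh in both, lower (limma, Benjamini-Hochberg adjusted p under 0.05). Of all tested genes 24.2% were called in MuRF1 +/+ hearts (12.3% lower) and 26.4% in MuRF1 -/- hearts (12.1% lower), so 1 lower member of 9 is near the background. The members' median difference was 0.01 in MuRF1 +/+ and -0.10 in MuRF1 -/- hearts, with medians of 0.01 and -0.01 over all tested genes. At 8 weeks against chow, 2 of 9 were called in MuRF1 +/+ hearts, Ogdh and Dlst, both lower, against 14% of all tested genes in either direction and 8.74% lower. All 9 differences there were negative, with a median of -0.59 against 0.03 over all tested genes, but 7 of them did not pass. Without replicate 2 the median was -0.21, 8 of 9 were negative and 1 passed, Dlst, with 6.47% of all tested genes called in that refit. Without replicate 1 it was -0.77 and 6 passed, all lower, but 32.8% of all tested genes were then called. In 8-week MuRF1 -/- hearts 0 of 9 were called by limma, against 1.83% of all tested genes, and 0 of 9 had an unadjusted p under 0.05, against 12.7%. There 8 of 9 differences were positive, with a median of 0.14. Between 3 and 8 weeks, 1 of 9 passed in MuRF1 +/+ hearts (Dlst, lower, against 17.5% of all tested genes in either direction and 9.58% lower) and 2 of 9 in MuRF1 -/- hearts (Ogdh and Idh2, higher, against 31.5% in either direction and 13.5% higher).

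**Figure D2:**
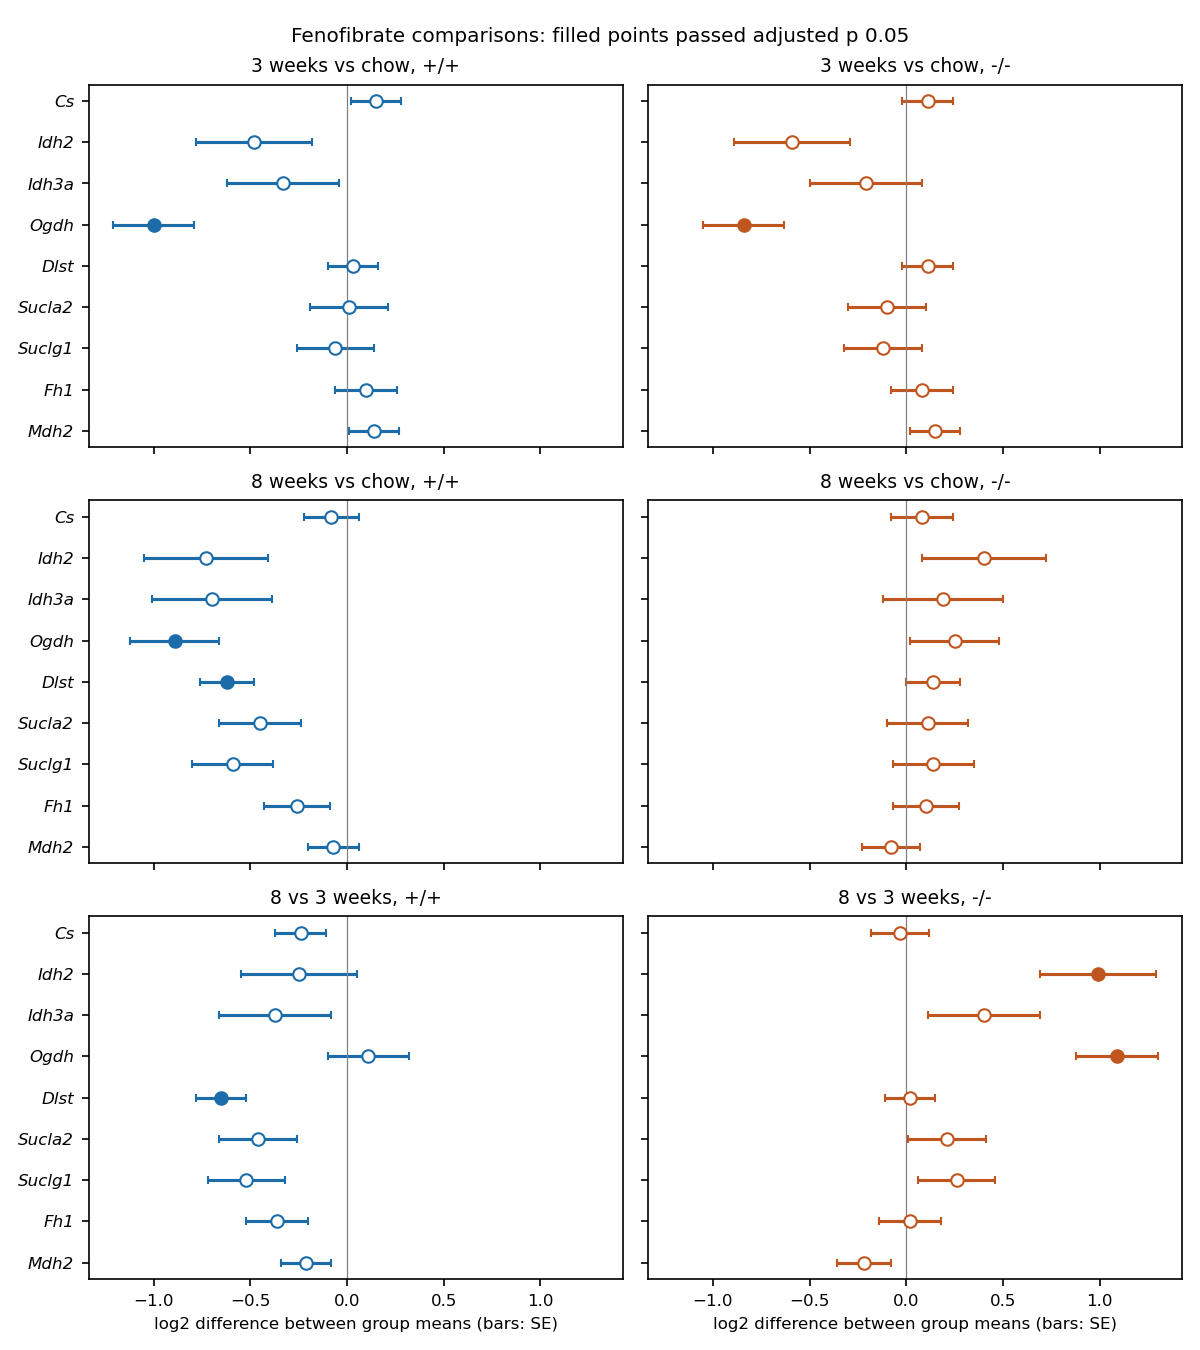
Difference between group means on the log2 scale (horizontal axis, bars SE) for each enzyme in the 6 comparisons of diet, with MuRF1 +/+ on the left and MuRF1 -/- on the right. Filled points passed an adjusted p of 0.05: Ogdh at 3 weeks in both genotypes (2.01-fold and 1.79-fold lower), Ogdh and Dlst at 8 weeks in MuRF1 +/+ (-0.89 and -0.62), and in the change from 3 to 8 weeks Dlst in MuRF1 +/+ (-0.65) and Idh2 and Ogdh in MuRF1 -/- (0.99 and 1.09).

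Ogdh encodes the decarboxylase component of the alpha-ketoglutarate dehydrogenase complex, the calcium-sensitive step that makes succinyl-CoA. Its level was 2.20, 2.18 and 2.04 in MuRF1 +/+ chow hearts and 1.11, 1.42, 0.86 and 1.15 after 3 weeks of fenofibrate. The 4 hearts of 3 weeks all lay below the 3 chow hearts, as they did for 22% of all tested genes. Ogdh fell by 1.00 ± 0.21 SE on the log2 scale, a 2.01-fold lower level (limma adjusted p = 0.00211). In MuRF1 -/- hearts it was 1.67, 2.05 and 1.87 on chow and 1.03, 1.24, 1.12 and 0.70 at 3 weeks, again without overlap, as for 14.8% of all tested genes. The difference there was -0.84 ± 0.21 SE, 1.79-fold lower (limma adjusted p = 0.00676). The responses of the genotypes at 3 weeks differed by 0.16 ± 0.30 SE (limma adjusted p = 0.999), which leaves room for a difference of either sign.

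At 8 weeks the mean level of Ogdh was higher in MuRF1 -/- than in MuRF1 +/+ hearts. The difference of 0.87 ± 0.23 SE did not pass (limma adjusted p = 0.0837). MuRF1 +/+ hearts were at 1.95, 0.66 and 1.12, and MuRF1 -/- hearts at 1.97, 2.18 and 2.19. One MuRF1 +/+ heart, replicate 1, was close to the chow range while the others lay far below it. Against chow, MuRF1 +/+ hearts were lower by a difference of -0.89 ± 0.23 SE (limma adjusted p = 0.0146) and MuRF1 -/- hearts differed by 0.25 ± 0.23 SE (limma adjusted p = 0.794). The MuRF1 +/+ call was lost without 8-week replicate 2 (-0.60, limma adjusted p = 0.0865), without chow replicate 1 (-0.86, limma adjusted p = 0.0535) and with only the 2 groups in the fit (limma adjusted p = 0.182), and it held at -0.60 (limma adjusted p = 0.0464) with both arrays that stand apart left out. From 3 to 8 weeks Ogdh rose in MuRF1 -/- hearts by 1.09 ± 0.21 SE, or 2.13-fold (limma adjusted p = 0.000825), with all 3 later hearts above all 4 earlier ones, as for 17.8% of all tested genes. In MuRF1 +/+ hearts the same step was 0.11 ± 0.21 SE (limma adjusted p = 0.749). That difference between genotypes in the step, a contrast added after the values were seen, was 0.98 ± 0.30 SE and did not pass (limma adjusted p = 0.153, with 0.00686% of all tested genes called). Without the 2 arrays that stand apart it was 0.58 ± 0.24 SE (limma adjusted p = 0.341).

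Both Ogdh probes gave the same picture. The other probe differed from chow by -1.05 ± 0.22 SE at 3 weeks and -0.89 ± 0.23 SE at 8 weeks in MuRF1 +/+ hearts, and by -0.81 ± 0.22 SE at 3 weeks in MuRF1 -/- hearts, and each passed in the fit of all 20840 measured probes (limma adjusted p = 0.00173, 0.0191 and 0.0103). That fit called 24.9%, 12.7% and 26.2% of probes in these comparisons. Arrays with the same scan date in the file headers were taken as 1 slide, which gave 5 slides of 4 arrays. For the 4 arrays of 1 such slide, the header entries disagreed on the slide name. Within slides that held both groups, the 3-week difference of Ogdh ran from -1.09 to -0.76 on 2 slides in MuRF1 +/+ and from -0.81 to -0.64 on 3 slides in MuRF1 -/- hearts. The 8-week MuRF1 +/+ difference was -1.37 and -0.23 on 2 slides, and the step from 3 to 8 weeks in MuRF1 -/- hearts was 1.49 and 0.94. The direction was the same on each of these slides. The genotype difference at 8 weeks was 0.01 on 1 slide and 1.07 on the other.

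Ogdh levels moved together with other features of the hearts. The mean of 8 endothelial markers, all 8 of them tested, was at 0.22 to 0.24 in MuRF1 +/+ chow hearts, 0.54 to 0.84 at 3 weeks and 0.38, 1.42 and 0.48 at 8 weeks. The MuRF1 -/- values of this mean lay between 0.14 and 0.37 for chow, between 0.48 and 0.86 for 3 weeks, and between 0.04 and 0.18 for 8 weeks. The groups low in Ogdh were thus those with more endothelial signal, and in bulk RNA fewer cells of a type and less RNA per cell cannot be told apart. The part of these markers in the Ogdh difference was not tested. The mean of 8 fibroblast markers lay between -3.19 and -2.66 in the chow hearts, between -2.65 and -2.10 in the 3-week hearts, at -3.08 to -1.96 in the 8-week MuRF1 +/+ and at -3.54 to -3.19 in the 8-week MuRF1 -/- hearts. The 8 cardiomyocyte markers had means of 3.19 to 3.45 in the 3-week and 3.20 to 3.45 in the chow hearts of both genotypes, and of 3.01 to 3.14 in the 8-week MuRF1 +/+ and 2.94 to 3.26 in the 8-week MuRF1 -/- hearts. The mean of the 4 tested of 5 atrial markers, with Bmp10 above background on 0 arrays, was at -1.91 to -1.65 in MuRF1 +/+ chow and -1.15 to -0.96 in MuRF1 +/+ 3-week hearts. It was at -1.86 to -1.60 in MuRF1 -/- chow hearts and at -1.68, -1.60, -1.18 and -0.16 at 3 weeks. Adipocyte markers (6 of 7 tested) had means of -2.52 to -2.45 in MuRF1 +/+ chow, -2.29 to -1.72 in 3-week and -2.42 to -1.38 in 8-week hearts. Skeletal muscle markers (6 of 6) were at -3.21 to -3.15, -3.16 to -2.80 and -3.25 to -2.23 there. In MuRF1 -/- hearts both means overlapped between chow and 3 weeks. Smooth muscle, leukocyte and erythroid means did so in both genotypes. The sex-linked transcripts also moved with Ogdh. Xist, the RNA that coats the inactive X chromosome, was at -4.24 to -3.49 in the chow hearts and at -0.50 to 0.20 in the 3-week hearts. At 8 weeks it was at -2.70, -0.90 and -2.04 in MuRF1 +/+ hearts, in the replicate order of the Ogdh levels 1.95, 0.66 and 1.12, and at -3.51, -2.72 and -4.05 in MuRF1 -/- hearts, beside Ogdh at 1.97, 2.18 and 2.19. Hearts high in Xist were thus low in Ogdh, whereas Ddx3y was low in 2 hearts of 8 weeks with Ogdh at 1.95 (MuRF1 +/+) and 2.18 (MuRF1 -/-). The part of these transcripts and of the atrial, adipocyte and skeletal muscle markers in the Ogdh differences was not tested.

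Dlst encodes the succinyl transferase core of the same complex, and its brightest probe followed another course than Ogdh. In MuRF1 +/+ hearts it read 1.08, 1.03 and 1.01 on chow, 1.07, 1.13, 1.08 and 0.98 at 3 weeks, and 0.70, 0.15 and 0.40 at 8 weeks. Chow and 3-week hearts overlapped, and all 3 hearts of 8 weeks lay below both groups, as for 16.2% (against chow) and 13.5% (against 3 weeks) of all tested genes. Dlst fell by 0.62 ± 0.14 SE against chow (1.54-fold, limma adjusted p = 0.00611) and by 0.65 ± 0.13 SE against 3 weeks (1.57-fold, limma adjusted p = 0.00171). Without replicate 2 the differences were -0.49 (limma adjusted p = 0.0284) and -0.52 (limma adjusted p = 0.00611), and both still passed. With only the chow and 8-week groups in the fit, the limma adjusted p of the first was 0.144. The second compares hearts that were alike in the low level of Ddx3y but not in Xist, another sex-linked transcript. Xist differed there by -1.59 ± 0.32 SE (limma adjusted p = 0.0022), and its part in the Dlst difference was not tested. Within slides the second Dlst difference was -0.58 and -0.43, and the first was -0.86 and -0.33. MuRF1 -/- hearts read 0.72, 1.02 and 0.74 on chow, 1.01, 1.07, 1.00 and 0.71 at 3 weeks and 0.99, 0.82 and 1.10 at 8 weeks. These groups overlapped, and their differences of 0.11, 0.14 and 0.02 did not pass (limma adjusted p = 0.547, 0.819 and 0.911).

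The 3 Dlst probes disagreed, so the course of this gene depends on the probe. The probe A_52_P140072 read 1.2, 1.05 and 0.97 on chow, 0.18, 0.13, -0.36 and -0.08 at 3 weeks and 0.83, -0.58 and -0.47 at 8 weeks in MuRF1 +/+ hearts. Its groups thus lay much like those of Ogdh, with no fenofibrate heart in the chow range. It differed from chow by -1.10 ± 0.30 SE at 3 weeks and -1.14 ± 0.32 SE at 8 weeks in MuRF1 +/+ hearts (limma adjusted p = 0.0115 and 0.0266 over all probes), and rose by 1.05 ± 0.30 SE from 3 to 8 weeks in MuRF1 -/- hearts (limma adjusted p = 0.0122). The probe A_52_P3383, above background on 14 arrays, read -0.51, -0.57 and -0.83 on chow, 0.47, 0.55, 0.28 and 0.27 at 3 weeks and -0.69, 0.00 and -0.36 at 8 weeks in MuRF1 +/+ hearts. It was high at 3 weeks, where the other probes were not, by 1.03 ± 0.13 SE in MuRF1 +/+ and 0.85 ± 0.13 SE in MuRF1 -/- hearts (limma adjusted p = 4.55e-05 and 0.000192). From 3 to 8 weeks it fell in both genotypes, by 0.74 ± 0.13 SE and 0.91 ± 0.13 SE (limma adjusted p = 0.00108 and 7.22e-05), steps in which 15.8% and 31.6% of all probes were called. In 8-week MuRF1 +/+ hearts its difference from chow was 0.28 ± 0.14 SE (limma adjusted p = 0.177), of the opposite sign to the other probes. The files annotate all 3 probes as Dlst. The brightest probe and A_52_P140072 carry the same RefSeq transcript, whereas A_52_P3383 carries another record and was named by its symbol. Their mean heart signals were 10.96, 7.72 and 6.37 on the log2 scale. The files do not say which part of a transcript each reads, so the probes are reported apart.

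**Figure D3:**
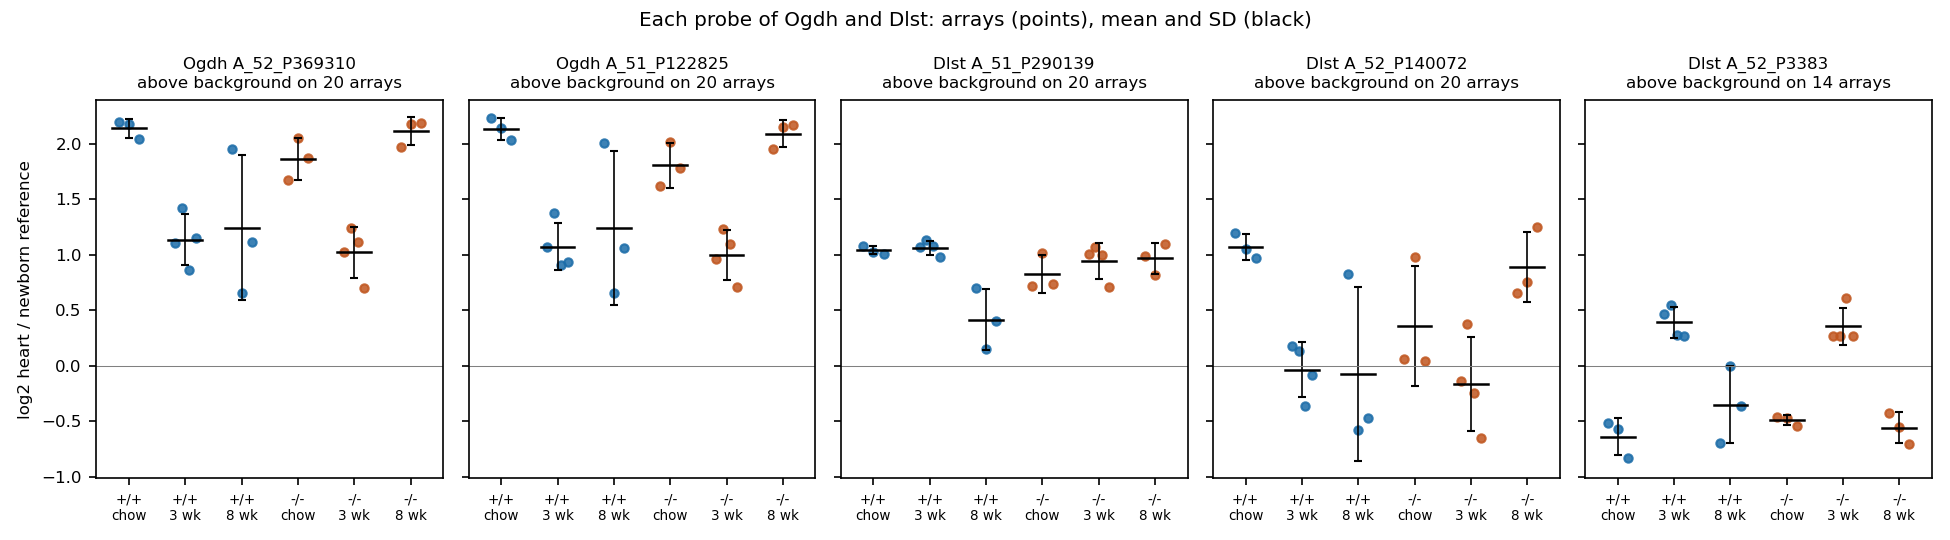
Level (log2 heart over newborn reference, vertical axis) of the 2 probes of Ogdh and the 3 probes of Dlst in the 6 groups, with arrays as points, means as lines and SD as bars. Both Ogdh probes fall at 3 weeks in both genotypes, and the Dlst probes take 3 different courses, with the third rising to between 0.27 and 0.61 at 3 weeks.

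Isocitrate dehydrogenase is present as the NADP-dependent enzyme of Idh2, which supplies NADPH to the matrix, and as the NAD-dependent enzyme whose catalytic subunit is Idh3a. Idh2 was at 2.53, 2.42 and 2.45 in MuRF1 +/+ chow hearts, 2.14, 2.13, 1.70 and 1.99 at 3 weeks and 2.38, 0.85 and 1.99 at 8 weeks. All fenofibrate hearts lay below all chow hearts, as for 22% (3 weeks) and 16.2% (8 weeks) of all tested genes. The differences of -0.48 ± 0.30 SE and -0.73 ± 0.32 SE did not pass (limma adjusted p = 0.272 and 0.130). With the 2 arrays that stand apart left out, the standard error at 3 weeks shrank to 0.12 and Idh2 passed (-0.48, limma adjusted p = 0.00355), while the 8-week difference became -0.28 (limma adjusted p = 0.214). At 3 weeks that refit called more of all tested genes than the fit of all arrays, a share given below with the other cycle enzymes. In MuRF1 -/- hearts Idh2 read 2.08, 2.28 and 2.35 on chow, 1.86, 2.08, 1.97 and 0.67 at 3 weeks and 2.48, 2.68 and 2.73 at 8 weeks. The 8-week hearts were the highest of this genotype. They lay above all chow hearts, as for 10.6% of all tested genes, and above all 3-week hearts, as for 17.8%. From 3 to 8 weeks Idh2 rose by 0.99 ± 0.30 SE (1.98-fold, limma adjusted p = 0.0190). Within slides that step was 2.06 on the slide that held replicate 4 of 3 weeks and 0.60 on the other. It was 0.66 without replicate 4 of 3 weeks (limma adjusted p = 0.0491), and the call was lost with slide as a block (0.93, limma adjusted p = 0.0701) and without 8-week replicate 2 (0.96, limma adjusted p = 0.0583) or 3 (0.94, limma adjusted p = 0.0672).

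Idh3a read 0.35, 0.05 and 0.25 in MuRF1 +/+ chow hearts, 0.12, -0.13, -0.20 and -0.26 at 3 weeks and 0.00, -1.47 and 0.02 at 8 weeks. The value of -1.47 was again that of replicate 2, and the other 2 hearts lay just below the lowest chow heart. Such a lack of overlap was seen for 16.2% of all tested genes. The differences from chow were -0.33 ± 0.29 SE at 3 weeks and -0.70 ± 0.31 SE at 8 weeks (limma adjusted p = 0.435 and 0.124). MuRF1 -/- hearts ran from -0.10 to 0.23 on chow, from -0.75 to 0.36 at 3 weeks and from 0.02 to 0.47 at 8 weeks, with overlap throughout.

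Succinyl-CoA ligase pairs the alpha subunit of Suclg1 with a beta subunit, and Sucla2 encodes the beta subunit of the ADP-forming enzyme. Suclg1 was at 0.71, 0.42 and 0.72 in MuRF1 +/+ chow hearts, 0.63, 0.61, 0.43 and 0.54 at 3 weeks and 0.44, -0.55 and 0.19 at 8 weeks. The 8-week difference from chow was -0.59 ± 0.21 SE and did not pass (limma adjusted p = 0.0709). Sucla2 read 0.91, 0.72 and 0.87 on chow and 0.87, -0.34 and 0.64 at 8 weeks, a difference of -0.45 ± 0.21 SE (limma adjusted p = 0.154) in which 1 heart of 3 stayed within the chow range. Its other measured probe differed by -0.83 ± 0.34 SE (limma adjusted p = 0.103 over all probes). In MuRF1 -/- hearts Suclg1 ran from 0.32 to 0.58 on chow and from 0.46 to 0.66 at 8 weeks, and Sucla2 from 0.66 to 0.78 and from 0.74 to 0.86. Neither gene passed in any of the 11 comparisons.

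Citrate synthase, fumarase and mitochondrial malate dehydrogenase varied least with diet. Cs group means lay between 0.63 and 0.91, those of Fh1 between 1.26 and 1.62 and those of Mdh2 between 2.05 and 2.38. Fh1 read 1.58, 1.41 and 1.57 in MuRF1 +/+ chow hearts, 1.69, 1.67, 1.58 and 1.56 at 3 weeks and 1.59, 0.67 and 1.53 at 8 weeks, so replicate 2 alone lay far below the chow hearts and the 8-week mean was 1.26 ± 0.52 (SD, n = 3). Mdh2 on that array was 2.13, close to 2.20 and 2.19 on the other arrays of its group, whereas 7 other members, all but Cs, were lower there than on either other array by over 0.2. Against chow the differences of Cs, Fh1 and Mdh2 ran from -0.26 to 0.15 over the 4 fenofibrate responses, and none passed by limma. The other Cs probe did pass in MuRF1 -/- hearts at 3 weeks, by 0.31 ± 0.10 SE (limma adjusted p = 0.0360 over all probes), where the first gave 0.11 ± 0.13 SE. Of all probes 26.2% were called there. That other probe also passed from 3 to 8 weeks in MuRF1 -/- hearts (-0.30 ± 0.10 SE, limma adjusted p = 0.0362), beside 31.6% of all probes. In MuRF1 +/+ hearts all 8-week values of Cs and Mdh2 lay below all 3-week values, as for 13.5% of all tested genes. Neither gene passed in that step.

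Between the genotypes, none of the 9 transcripts differed past the threshold on any diet. On chow 0 of 9 passed by limma, against 0.0892% of all tested genes, and 0 of 9 had an unadjusted p under 0.05, against 3.18%. All 9 differences there were negative, from -0.27 for Ogdh to -0.10 for Fh1 (median -0.18). At 3 weeks of fenofibrate 0 of 9 passed by limma, against 0.398%, and 0 of 9 unadjusted, against 5.31%, with 9 negative differences and a median of -0.12. At 8 weeks 0 of 9 passed by limma, against 0.0892%, and 5 of 9 had an unadjusted p under 0.05, against 21.9% of all tested genes. There 8 of 9 differences were positive, with a median of 0.53 against -0.03 over all tested genes. The largest were Idh2 (0.89 ± 0.32 SE, limma adjusted p = 0.140), Ogdh (0.87 ± 0.23 SE, limma adjusted p = 0.0837), Idh3a (0.72 ± 0.31 SE, limma adjusted p = 0.190) and Dlst (0.55 ± 0.14 SE, limma adjusted p = 0.0722). For Idh2, Ogdh, Dlst and Suclg1 every MuRF1 -/- heart lay above every MuRF1 +/+ heart at 8 weeks, as for 9.34% of all tested genes. The same held for Idh3a, whose nearest hearts were both at 0.02 after rounding. Left without MuRF1 +/+ replicate 1, the comparison called 6 of 9 higher, from 0.67 to 1.22, with 21.3% of all tested genes called. Without replicate 2 it called 0 of 9 by limma, with a median of 0.22 and 0.0755% of all tested genes called.

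The direct test of whether the genotypes answered the diet differently called 0 of 9 by limma at 3 weeks, with 0% of all tested genes called, and 0 of 9 at 8 weeks, with 0.00686% called. At an unadjusted p under 0.05 there were 0 of 9 at 3 weeks, against 2.45% of all tested genes, and 4 of 9 at 8 weeks, against 16.8%. At 8 weeks the response of MuRF1 -/- minus that of MuRF1 +/+ was 1.14 ± 0.32 SE for Ogdh, 1.13 ± 0.46 SE for Idh2, 0.76 ± 0.19 SE for Dlst and 0.73 ± 0.30 SE for Suclg1 (limma adjusted p = 0.219, 0.254, 0.217 and 0.259). Over the 9 members the median was 0.73. It was 0.40 without replicate 2 of the 8-week MuRF1 +/+ group, with 0 called, and 0.90 without replicate 1, with 4 called beside 9.69% of all tested genes. These 8-week contrasts therefore rest on how the 3 MuRF1 +/+ hearts, which spread widely, are weighed.

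Of the 12 other cycle enzymes and subunits, all tested, few passed. In 8-week MuRF1 +/+ hearts all 12 were lower than in chow hearts, with a median of -0.55, and 3 passed, against 8.74% of all tested genes called lower: Sdhd, a membrane anchor of succinate dehydrogenase (-1.04 ± 0.28 SE, limma adjusted p = 0.0222), the cytosolic malate dehydrogenase Mdh1 (-0.57 ± 0.18 SE, limma adjusted p = 0.0367) and the cytosolic aconitase Aco1 (-0.30 ± 0.080 SE, limma adjusted p = 0.0195). Aco1 was also the 1 gene of the 12 that passed at 3 weeks, lower in MuRF1 +/+ (-0.30) and MuRF1 -/- hearts (-0.23). At 3 weeks 9 of the 12 differences were negative in each genotype. From 3 to 8 weeks Aco1 rose by 0.23 in MuRF1 -/- hearts. The shares of all tested genes called in the direction of Aco1 in these comparisons were 12.3%, 12.1% and 13.5%. Sdhd and Mdh1 also fell from 3 to 8 weeks in MuRF1 +/+ hearts, by 0.88 ± 0.27 SE and 0.59 ± 0.16 SE (limma adjusted p = 0.0298 and 0.0177). Without the 2 arrays that stand apart, Sdhd and Aco1 still passed at 8 weeks in MuRF1 +/+ hearts and Mdh1 did not, 11 of 12 were negative with a median of -0.22, and from 3 to 8 weeks 0 of 12 passed by limma. The same refit called 3 of 12 lower at 3 weeks in MuRF1 +/+ hearts (Sdhb, Sdhc and Aco1) and 3 of 12 lower at 3 weeks in MuRF1 -/- hearts (Sdhb, Aco1 and Idh1). In each of these comparisons it called 36.3% of all tested genes. In 8-week MuRF1 -/- hearts 0 of 12 passed, and 10 of 12 were positive with a median of 0.09.

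The 23 genes that feed the cycle or carry its intermediates, all tested, gave a like picture. In 8-week MuRF1 +/+ hearts 8 of 23 were called lower than on chow and 0 higher, against 8.74% of all tested genes called lower. They were led by Pdhb and Dlat, subunits of pyruvate dehydrogenase (-1.12 ± 0.29 SE and -0.70 ± 0.19 SE, limma adjusted p = 0.0166 and 0.0194), the alanine transaminase Gpt (-0.77 ± 0.15 SE, limma adjusted p = 0.00368) and the aspartate-glutamate carrier Slc25a12 (-0.72 ± 0.15 SE, limma adjusted p = 0.00408). At 3 weeks Gpt (-0.47) and the dicarboxylate carrier Slc25a10 (-0.45) were lower in MuRF1 +/+ hearts, and the mitochondrial malic enzyme Me3 was lower (-1.16) and Pdha1 higher (0.44) in MuRF1 -/- hearts, beside 24.2% and 26.4% of all tested genes called in either direction. From 3 to 8 weeks 5 of 23 were called lower in MuRF1 +/+ hearts, against 9.58% of all tested genes. In MuRF1 -/- hearts 2 of 23 were called higher in that step, Me3 (1.38) and Gpt (0.54), against 13.5%. In 8-week MuRF1 -/- hearts against chow 0 of 23 passed by limma. Without the 2 arrays that stand apart, 6 of 23 were called lower at 8 weeks in MuRF1 +/+ hearts. The median was then -0.05 in place of -0.38, and 10.1% of all tested genes were called in either direction. The same refit called 7 of 23 lower at 3 weeks in MuRF1 +/+ hearts, beside 36.3% of all tested genes. From 3 to 8 weeks in MuRF1 -/- hearts it called 8 of 23 higher and 2 lower, beside 41.1%.

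Among the 36 pairs of members, correlations over the 20 arrays ran from -0.425 to 0.888, with a median of 0.585. They are given as a description, since the arrays share groups, slides and the 2 hearts that stand apart. Without those 2 arrays the median was 0.344, and the highest pair was Idh2 with Ogdh, at 0.926 (0.857 on all 20). Sucla2 with Fh1, the highest on all arrays at 0.888, was at 0.479 without them, and Idh2 with Suclg1 went from 0.847 to 0.424. Ogdh and Dlst, partners in 1 complex, stood at 0.339 and at 0.00896. Mdh2 went with Cs (0.662 and 0.624) and against Ogdh (-0.425 and -0.414). Leaving out the 2 hearts thus lowered most of the high correlations, but not that of Idh2 with Ogdh. Cs with Fh1 (0.592 to 0.791) and Cs with Sucla2 (0.518 to 0.744) rose as well.

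**Figure D4:**
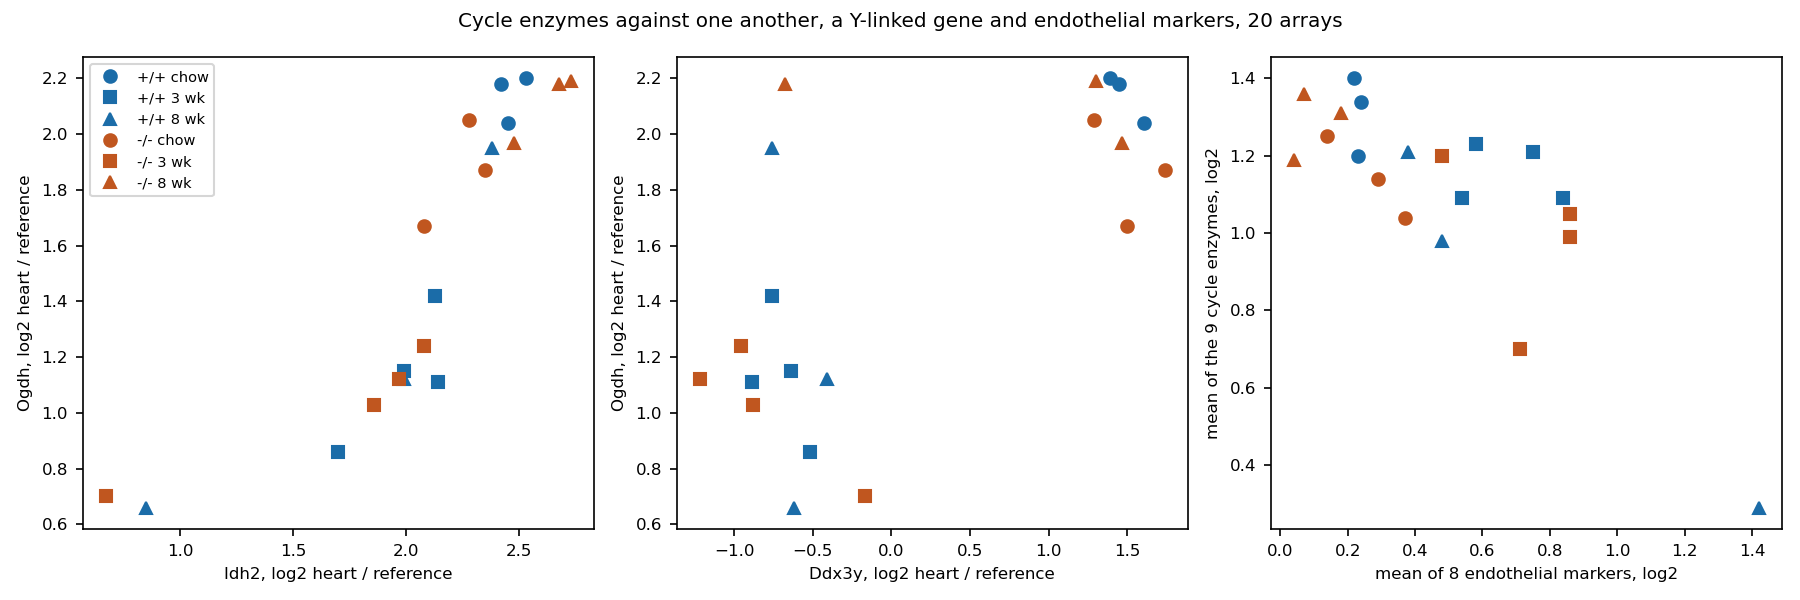
Each point is 1 of the 20 arrays, with colour for genotype and shape for diet. Ogdh rises with Idh2 (left, both log2 heart over reference), Ogdh by Ddx3y shows 2 hearts of 8 weeks with low Ddx3y and Ogdh at 1.95 and 2.18 (middle), and the mean of the 9 enzymes is lowest, at 0.29, on the array with the highest mean of 8 endothelial markers, 1.42 (right).

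The 5 genes outside the set whose levels were most like the members' mean profile, each member first scaled to its own spread, were Lrpprc (Pearson correlation 0.940 over 20 arrays), Immt (0.929), Apoo (0.926), Atp5pb (0.925) and Rasl2-9 (0.924). Without the 2 arrays that stand apart the values were 0.777, 0.83, 0.739, 0.712 and 0.701. Lrpprc encodes a binding protein of mitochondrial mRNA, Immt and Apoo encode proteins of the inner membrane's cristae junctions, and Atp5pb encodes a subunit of ATP synthase. These are the closest of all other tested genes by rank, and nothing about shared control follows from the likeness.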

How the data were processed

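Heart and reference signals of 20 two-colour arrays were used, 3 or 4 per group. The scanner files hold spot intensity from Agilent Feature Extraction 9.5.3.1, with local background, deposited without normalization per the file headers. Per the file headers, Agilent's log10 ratio of red over green was background-subtracted and dye-normalized before it was deposited. A value table on the log2 scale was deposited by the authors as well (series matrix), and its making is not stated in the labels. Its columns had slopes of 0.949 to 0.994 on Agilent's ratio for bright probes and medians of -0.00598 to 0.00913, so scale and direction were settled. Per the labels, 50 ng of RNA extracted with a Qiagen AllPrep kit went into Agilent's low-input amplification. The dye of heart RNA is Cy5 in the channel labels, which were followed, and Cy3 in the protocol text, and all arrays ran the same way (correlations of 0.746 to 0.983 between arrays).

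Intensities were corrected by normexp (offset 50) and normalized within arrays by loess in limma 3.58.1 (R 4.3.3, with files read by version 1.17.8 of the data.table package), with control spots at weight 0 and outlier spots missing. In 7 spots of replicate 2 of the MuRF1 -/- chow group the background exceeded the signal by more than 50, and these were left out. Spots were averaged to 41174 probes, named through RefSeq tables of GRCm38.p6 (22951 by accession, 6659 by symbol, 3109 by synonym, 8455 with the file's name). Each gene was read by its probe of brightest heart signal and tested if well above background on at least 3 arrays. One model with 6 group means and a trended prior variance was fitted to all arrays, and p-values were adjusted over all 14567 genes. All measured probes were fitted likewise. The fit was tested on simulated data. Precision is limited by the number of arrays.

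The genes named were the 9 members, those past the threshold in lists of 12 other cycle and 23 supply genes (up to 4 per direction), the 5 most alike genes and fixed checks. Members and lists were chosen with earlier results of these data known. Alternatives were other background fits, Agilent's ratio, the series matrix, slide and replicate blocks, other filters and probe rules, fits of only the compared groups, and arrays left out. The contrast of the steps from 3 to 8 weeks, the reading of each Dlst probe and the refit of the 2 lists without the 2 arrays that stand apart were added after the data were seen. Markers of 9 cell types were read too. Replicate numbers are in the titles. Deviations of same-numbered arrays correlated at -0.579 to 0.449 (46 pairs, median -0.0337), so the numbers were not taken as pairs. One result of the list of other cycle genes is not reported here.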

Additional observations from a re-analysis of the deposited data

Results flagged for a closer look

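Of 18 groups of 4 arrays (9 members in both 3-week groups), 2 had 1 array far from the others by Dixon's criterion, which by chance marks about 1 group in 20. Both were replicate 4 of the 3-week MuRF1 -/- group. Its Idh2 level was 0.67, against 1.86 to 2.08 in the other 3 hearts, and its Mdh2 level was 2.54, against 2.15 to 2.22. The array was thus low for 1 member and high for the other. It also had 34.3% of heart probes above background, and its mean of atrial markers was -0.16, against -1.68 to -1.18 in the other 3 hearts. The part of these in either value was not tested.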

How the results depend on the processing

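Over 11 comparisons the 9 members gave 99 pairs of gene and comparison, of which 7 passed. Under the alternatives those 7 kept direction and call in 110 of 117 refits, lost the call in 7 and reversed in 0. Pairs that did not pass gained a call in 24 of 1647 refits, and in 105 refits the sign changed with no call on either side. For 3 weeks in MuRF1 +/+ hearts, 1 member passed, against 3 with only the 2 groups in the fit (Idh2 and Idh3a added) and 2 without the 2 arrays that stand apart. For 8 weeks in MuRF1 +/+ hearts 2 passed, against 0 with only those groups in the fit, and 1 to 6 with 1 array left out. From 3 to 8 weeks in MuRF1 +/+ hearts 1 passed, against 3 in the series matrix (Cs and Mdh2 added), 2 with a replicate block (Suclg1 added, -0.61, limma adjusted p = 0.0426) and 1 to 4 with 1 array left out. The same step in MuRF1 -/- hearts called 2, against 1 with slide as a block and 1 to 2 with 1 array left out. Genotype at 8 weeks called 0, against 1 with Agilent's ratio (Dlst, 0.59, limma adjusted p = 0.0415) and 0 to 6 with 1 array left out. The difference of the 8-week responses called 0, and 0 to 4 with 1 array left out. For each 8-week comparison that held MuRF1 +/+ hearts, the highest count came without replicate 1 of that group. Calls over all genes in the genotype comparison then rose from 13 to 3099. The replicate block changed no other count of calls. The mean level of the 9 members was 1.11 ± 0.25 (SD over arrays) and 1.07 to 1.12 in the other scalings. The share of all tested genes called moved between refits as well, so a higher count of members is not read as a result about them. Why counts moved was not tested.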

Other observations

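Further PPAR alpha targets were read beside Ogdh. Acot1, a thioesterase of long-chain acyl-CoA, differed from chow by 0.26 ± 0.36 SE at 3 weeks and 2.62 ± 0.39 SE at 8 weeks in MuRF1 +/+ hearts (limma adjusted p = 0.650 and 0.000433), and by -0.65 ± 0.36 SE and 1.75 ± 0.39 SE in MuRF1 -/- hearts (limma adjusted p = 0.200 and 0.0246). Angptl4, whose protein inhibits lipoprotein lipase, rose by 1.64 ± 0.36 SE at 8 weeks in MuRF1 +/+ hearts (limma adjusted p = 0.00704). In 8-week MuRF1 -/- hearts Angptl4 differed by 1.07 ± 0.36 SE and did not pass (limma adjusted p = 0.155). Ucp3, which encodes a mitochondrial uncoupling protein, differed from chow by -0.06 ± 0.34 SE and 0.06 ± 0.34 SE at 8 weeks (limma adjusted p = 0.915 and 0.987). Ogdh was called lower at 3 weeks, when none of the 4, Pdk4 included, passed by limma in either genotype. It was also called lower in 8-week MuRF1 +/+ hearts, where Pdk4, Acot1 and Angptl4 passed, and was not called in 8-week MuRF1 -/- hearts, where Pdk4 and Acot1 passed. The sex-linked, endothelial and atrial values given above moved with the 3-week groups as well.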
